A study of Mus musculus with 16 samples.

Results

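The genes followed here encode chemokine receptors of monocytes and neutrophils, namely Ccr1, Ccr2, Ccrl2, Cx3cr1, Cxcr2, Cxcr3 and Cxcr4. They were chosen by symbol, and all 7 were among the 24421 gene symbols counted in each library. The counts came from myeloid-derived suppressor cells (MDSCs), immature myeloid cells that accumulate in tumor-bearing hosts and restrain T cells. Monocytic MDSCs (M-MDSCs, CD11b-high Ly6C+ Ly6G-) and granulocytic MDSCs (G-MDSCs, CD11b-high Ly6C- Ly6G+) were sorted from the spleens of 4 WT mice, bought as C57BL/6J, and 4 Nlrp3-/- mice on a C57BL/6 background. The labels name 8 spleens, each with an M-MDSC and a G-MDSC library, which gives 16 libraries in 4 groups of 4. All 8 mice carried a subcutaneous B16.F10 tumor, a transplantable mouse melanoma line, so no tumor-free control entered any comparison. The Nlrp3-/- allele carries an EGFP cassette with its own poly(A) signal, fused in frame at the start codon in exon 2 of Nlrp3, and is carried by every cell of the mouse, not by MDSCs alone. The WT mice came from a commercial colony and the Nlrp3-/- mice from another laboratory. The paper also reports smaller B16.F10 tumors in Nlrp3-/- mice, and in their spleens more M-MDSCs and fewer G-MDSCs. The allele, the colony, the tumor burden and the make-up of the spleen thus cannot be told apart. Mice of the study were 6 to 12 weeks old and matched for sex and age unless it says otherwise, and the day of the sort is not given for the sequenced samples.

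Chemokine receptors are G protein-coupled receptors that steer leukocytes along gradients of secreted chemokines. CCR2, the receptor for CCL2, releases inflammatory monocytes from the bone marrow, and CX3CR1, the receptor for fractalkine, marks monocytes that survive and patrol the vessels. CXCR2, the receptor for neutrophil-attracting CXC chemokines such as CXCL1 and CXCL2, draws neutrophils out of the marrow, whereas CXCR4, the receptor for CXCL12, retains them there and is raised on aged neutrophils that return to it. CCR1 binds CCL3, CCL5 and other CC chemokines, CXCR3 binds the interferon-induced chemokines CXCL9 and CXCL10 and is best known from T and NK cells, and CCRL2 is an atypical receptor that binds chemerin without signaling of its own.

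The genes lie on 3 chromosomes of mm10. Ccrl2 (chr9:111054834-111057518), Cx3cr1 (chr9:120048683-120068296), Ccr1 (chr9:123962126-123968692) and Ccr2 (chr9:124101918-124109140) share chromosome 9, with Ccr2 on the plus strand and the others on the minus strand. The adjacent ends of Ccr1 and Ccr2 are 133225 bases apart. Cxcr2 (chr1:74153994-74161246, plus strand) and Cxcr4 (chr1:128588199-128592299, minus strand) lie on chromosome 1, and Cxcr3 (chrX:101731535-101734147, minus strand) on chromosome X. In RefSeq, Cx3cr1 overlaps the antisense gene Gm33858, and the authors' counting used strand. The RefSeq promoter windows of the 5 genes whose levels set the subsets apart most are shown because their mRNAs were high in opposite subsets. Each runs from 250 bases before to 50 bases after the annotated start site (build GRCm38.p6), and is written from 5′ to 3′ on the strand of the gene. The start site used for Ccr2 is not the outer end of the locus given above. Its window lies wholly within that locus and holds no sequence upstream of it. Cxcr2 (chr1:74153744-74154043, plus strand), Ccr1 (chr9:123968643-123968942, minus strand) and Cxcr4 (chr1:128592250-128592549, minus strand) were higher in G-MDSCs, and Ccr2 (chr9:124101933-124102232, plus strand) and Cx3cr1 (chr9:120068247-120068546, minus strand) in M-MDSCs. Capitals mark matches to the core of the PU.1 site, GAGGAA on either strand, in Cxcr2 and Ccr1, and the TATA box, TATAAA on either strand, in Cxcr4.
Cxcr2: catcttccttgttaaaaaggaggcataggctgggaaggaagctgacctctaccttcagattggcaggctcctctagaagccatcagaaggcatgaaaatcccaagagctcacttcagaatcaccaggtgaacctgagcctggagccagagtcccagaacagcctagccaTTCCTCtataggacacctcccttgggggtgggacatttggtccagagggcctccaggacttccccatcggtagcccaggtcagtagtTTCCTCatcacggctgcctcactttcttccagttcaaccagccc
Ccr1: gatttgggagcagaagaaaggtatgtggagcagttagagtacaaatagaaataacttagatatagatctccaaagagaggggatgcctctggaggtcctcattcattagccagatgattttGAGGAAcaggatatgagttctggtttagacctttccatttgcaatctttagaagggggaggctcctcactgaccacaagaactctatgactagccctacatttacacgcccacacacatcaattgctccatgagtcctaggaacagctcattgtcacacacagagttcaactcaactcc
Cxcr4: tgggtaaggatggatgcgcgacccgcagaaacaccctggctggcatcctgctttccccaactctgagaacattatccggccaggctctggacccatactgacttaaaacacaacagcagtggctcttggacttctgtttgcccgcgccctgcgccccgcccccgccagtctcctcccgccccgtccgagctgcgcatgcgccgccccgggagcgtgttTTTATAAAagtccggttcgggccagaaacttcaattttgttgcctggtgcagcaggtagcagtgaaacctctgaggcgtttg
Ccr2: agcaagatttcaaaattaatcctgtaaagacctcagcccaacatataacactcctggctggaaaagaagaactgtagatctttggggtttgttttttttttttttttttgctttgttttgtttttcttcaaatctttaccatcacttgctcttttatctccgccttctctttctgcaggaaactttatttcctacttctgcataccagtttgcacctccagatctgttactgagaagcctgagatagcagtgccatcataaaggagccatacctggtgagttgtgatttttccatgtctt
Cx3cr1: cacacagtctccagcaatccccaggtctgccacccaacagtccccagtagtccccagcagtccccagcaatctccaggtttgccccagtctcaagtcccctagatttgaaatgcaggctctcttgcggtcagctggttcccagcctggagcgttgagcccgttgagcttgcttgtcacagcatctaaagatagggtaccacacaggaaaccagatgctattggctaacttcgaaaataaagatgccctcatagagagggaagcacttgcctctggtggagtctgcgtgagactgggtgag

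PU.1 and the C/EBP factors are transcription factors of myeloid cells. The PU.1 core was found in the windows of Cxcr2, where both matches lie on the opposite strand, of Ccr1 and of Cxcr3, that is in 3 of 9 windows of the 7 genes (Ccrl2 has 3 annotated starts), and in 28.3% of all 32851 RefSeq promoter windows. The TATA box was found in Cxcr4 alone among the 9 windows, as overlapping matches on both strands, and in 13.6% of all windows. A C/EBP motif, TTGCNNAA on either strand, was in 0 of the 9 windows and in 10.8% of all windows. These are matches of letters in short windows and say nothing on binding.

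The libraries held 2295967 to 6079866 counts of reads from the 3′ ends of transcripts, and levels are given as CPM, the counts of a gene relative to all counts of the library, after TMM scaling over all 16 libraries. A count of 3, taken as the floor, equals 0.493 to 1.31 CPM before this scaling, which covers counting error only. Nlrp3, the targeted gene, was lower in each Nlrp3-/- library than in each WT library of its subset. M-MDSC libraries had 219 to 632 Nlrp3 counts when WT and 4 to 11 when Nlrp3-/-, and G-MDSC libraries 744 to 1365 and 21 to 59. The kit reads 3′ ends, the cassette is in exon 2, and the files give no read positions within Nlrp3. Of 12 neutrophil markers 12 were higher in G-MDSCs in both genotypes, and of 10 monocyte markers 9 were lower. Ly6c2, part of the Ly6C antigen used in the sort, still reached 223 CPM ± 41.2 (SD, n = 4) in WT G-MDSCs against 985 CPM ± 202 in WT M-MDSCs. Ly6g was not among the gene symbols counted, so it could not be checked. The library of M-MDSC WT replicate 2 stood apart by its neutrophil markers, which summed to 9072 CPM against 1546 to 1971 CPM in the other WT and 2314 to 2647 CPM in the Nlrp3-/- M-MDSC libraries. In bulk samples such as these, fewer cells of a type and less RNA per cell cannot be told apart.

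The first question was how the receptors differ between the subsets. In WT mice Cxcr2, Ccr1, Cxcr4, Ccrl2 and Cxcr3 were higher in G-MDSCs, and Ccr2 and Cx3cr1 were higher in M-MDSCs. A gene was called when its Benjamini-Hochberg adjusted p was under 0.05 and its fold change above 1.5 by edgeR's quasi-likelihood test. By this rule 7 of 7 receptors were called in WT mice, against a background of 53.3% of all 9739 genes tested, and 6 of 7 in Nlrp3-/- mice, against 51% of 10071 genes. The 5 higher and 2 lower receptors in WT mice stand beside 26.3% of all genes called higher and 27.1% called lower, and the 4 higher and 2 lower in Nlrp3-/- mice beside 23.7% and 27.4%. The ranges of the subsets were separate for the called receptors, and for 51.9% of all genes in WT and 50.2% in Nlrp3-/- mice. Cxcr3 was the receptor not called in Nlrp3-/- mice. Cxcr2 entered these tests through G-MDSCs alone, since its counts in M-MDSCs were near the floor, and a gene that does so has to differ, so its call adds no support. Without it the counts were 6 of 6 and 5 of 6. Cx3cr1 in G-MDSCs, from 10 counts in WT and 5 in Nlrp3-/- libraries, and Cxcr3 in WT M-MDSCs, from 4 counts, were low too. In each of these groups not every library reached the cutoff of the filter on low counts. These calls too lean on the subset where the gene is high, and they add no support. With at least 10 counts required in every sample, 5 of 5 receptors tested were called in WT mice, Cxcr2 and Cxcr3 being left out, and 4 of 5 in Nlrp3-/- mice, Cxcr2 and Cx3cr1 being left out.

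Cxcr2 showed the widest difference of the 7. Its level was 2967, 1852, 2408 and 3194 CPM in G-MDSC WT replicates 1 to 4 and 1543, 1224, 1002 and 853 CPM in G-MDSC Nlrp3-/- replicates 1 to 4. In M-MDSCs it was 0.929, 3.52, 0.535 and 1.37 CPM in WT and 1.05, 0.853, 0.209 and 1.28 CPM in Nlrp3-/- replicates, from 3 to 25 and 1 to 10 counts. Every G-MDSC library thus lay far above every M-MDSC library, and the highest M-MDSC value came from the WT library with high neutrophil markers. The fitted log2 fold change of G-MDSCs over M-MDSCs was 10.56 in WT and 10.16 in Nlrp3-/- mice, and 11.42 in WT mice without M-MDSC WT replicate 2. It is given as a description with no test, because the gene passed the filter on low counts through G-MDSCs alone and some M-MDSC libraries are at or under the floor.

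Ccr1 followed Cxcr2 in direction. It was 356, 452, 557 and 488 CPM in WT and 541, 424, 369 and 503 CPM in Nlrp3-/- G-MDSCs, but 15.6, 19.1, 14.3 and 25.7 CPM in WT and 16.4, 12.8, 12.5 and 11.05 CPM in Nlrp3-/- M-MDSCs. The ranges of the subsets were far apart in both genotypes. The log2 difference was 4.65 ± 0.23 (adjusted p = 3e-08, edgeR) in WT and 5.00 ± 0.21 (adjusted p = 3.74e-10) in Nlrp3-/- mice, a 25.1-fold and a 31.9-fold excess in G-MDSCs.

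Cxcr4 was present in both subsets and higher in G-MDSCs. Its level was 741, 679.6, 1104 and 1278 CPM in WT and 1298, 1440.2, 1213 and 1897 CPM in Nlrp3-/- G-MDSCs. M-MDSCs held 98.7, 222, 181 and 194 CPM in WT and 184, 156, 141 and 306 CPM in Nlrp3-/- replicates, all of them below the lowest G-MDSC library. The excess in G-MDSCs was 5.47-fold in WT (log2 2.45 ± 0.28, edgeR adjusted p = 1.72e-05) and 6.82-fold in Nlrp3-/- mice (log2 2.77 ± 0.25, adjusted p = 5.89e-07).

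Ccrl2, the atypical receptor, differed less. WT G-MDSCs had 126, 191, 262 and 216 CPM and Nlrp3-/- G-MDSCs 193, 254, 159.5 and 299 CPM, against 36.2, 102, 81.7 and 63.7 CPM in WT and 67.1, 44.4, 45.5 and 74.5 CPM in Nlrp3-/- M-MDSCs. The subsets did not overlap, although the lowest WT G-MDSC library was close to the highest WT M-MDSC library. The log2 difference was 1.48 ± 0.30 (adjusted p = 0.00118, edgeR) in WT and 1.84 ± 0.24 (adjusted p = 1.89e-05) in Nlrp3-/- mice.

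Cxcr3 was low in all groups and the least stable of the receptors. It was 9.01, 9.81, 8.97 and 5.45 CPM in WT G-MDSCs and 4.83, 5.06, 2.68 and 1.37 CPM in WT M-MDSCs, from as few as 4 counts in a library. The WT ranges were separated by a narrow gap, from 5.06 to 5.45 CPM, and the log2 difference was 1.20 ± 0.40 (edgeR adjusted p = 0.022). Only G-MDSCs met the filter on low counts in every WT library, so this call leans on that subset and adds no support. The call was lost when libraries were scaled by their size only (0.47, adjusted p = 0.305), by upper quartiles (0.98, adjusted p = 0.0518), or without M-MDSC WT replicate 3 (1.03, adjusted p = 0.0762) or 4 (0.93, adjusted p = 0.0618). In Nlrp3-/- mice the values of 12.2, 17.0, 13.9 and 7.34 CPM in G-MDSCs overlapped those of 4.19, 9.21, 12.5 and 2.83 CPM in M-MDSCs, and the difference of 0.74 ± 0.45 (adjusted p = 0.179) was not called, although it was with the mouse as a replicate block together with a GC content and length correction (0.96, adjusted p = 0.0291). CXCR3 is a receptor of T and NK cells, and the summed level of 16 T and NK cell markers was 214 to 312 CPM in WT G-MDSCs and 164 to 224 CPM in WT M-MDSCs, with at most 1 of the 16 at 0 in a library. Of these markers 13 were tested between the WT subsets, and the list was mixed. In G-MDSCs 4 were called higher (Cd3d, Cd4, Cd247 and Il7r) and 1 lower (Nkg7), beside 53.3% of all genes called. The part of such cells in the Cxcr3 difference was not tested.

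The monocyte receptors ran the other way. Ccr2 was 1021, 875, 1198 and 1563 CPM in WT and 1079.7, 794, 829 and 839 CPM in Nlrp3-/- M-MDSCs, whereas G-MDSCs held 12.4, 9.81, 3.39 and 8.56 CPM in WT and 4.39, 7.16, 8.50 and 4.98 CPM in Nlrp3-/- replicates. No G-MDSC library came near an M-MDSC library. The log2 fold change of G-MDSCs over M-MDSCs was -7.11 ± 0.37 (edgeR adjusted p = 4.07e-08) in WT and -7.25 ± 0.25 (adjusted p = 8.64e-11) in Nlrp3-/- mice.

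Cx3cr1 had a pattern close to that of Ccr2. M-MDSCs held 1144, 529, 604 and 786 CPM in WT and 896, 914, 1368 and 1061 CPM in Nlrp3-/- replicates, and G-MDSCs 14.7, 3.38, 3.15 and 4.67 CPM in WT and 14.3, 1.23, 3.73 and 11.5 CPM in Nlrp3-/- replicates. In either genotype the G-MDSC libraries split into low and higher ones, yet all were far below M-MDSCs. The log2 difference was -6.90 ± 0.49 in WT and -7.22 ± 0.50 in Nlrp3-/- mice. G-MDSC libraries held 10 to 44 counts in WT and 5 to 62 in Nlrp3-/- mice. Only M-MDSCs met the filter on low counts in every library, so these differences are given as a description with no test. An exact two-sided permutation test of the mean log2 CPM was applied to the subset differences. Cxcr2, Cx3cr1 and, in WT mice, Cxcr3 were left aside, since they lean on the subset where they are high. The exact permutation test gave exact p = 0.0286 for Ccr1, Ccr2, Ccrl2 and Cxcr4 in both genotypes. For Cxcr3 in Nlrp3-/- mice the exact permutation test gave exact p = 0.171. The lower value is the smallest that 4 against 4 allows when libraries are shuffled as independent. Each spleen gave a library of either subset, and the shuffling ignored this pairing. A permutation within spleens has fewer arrangements, could not reach so small a value, and was not run.

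**Figure D1:**
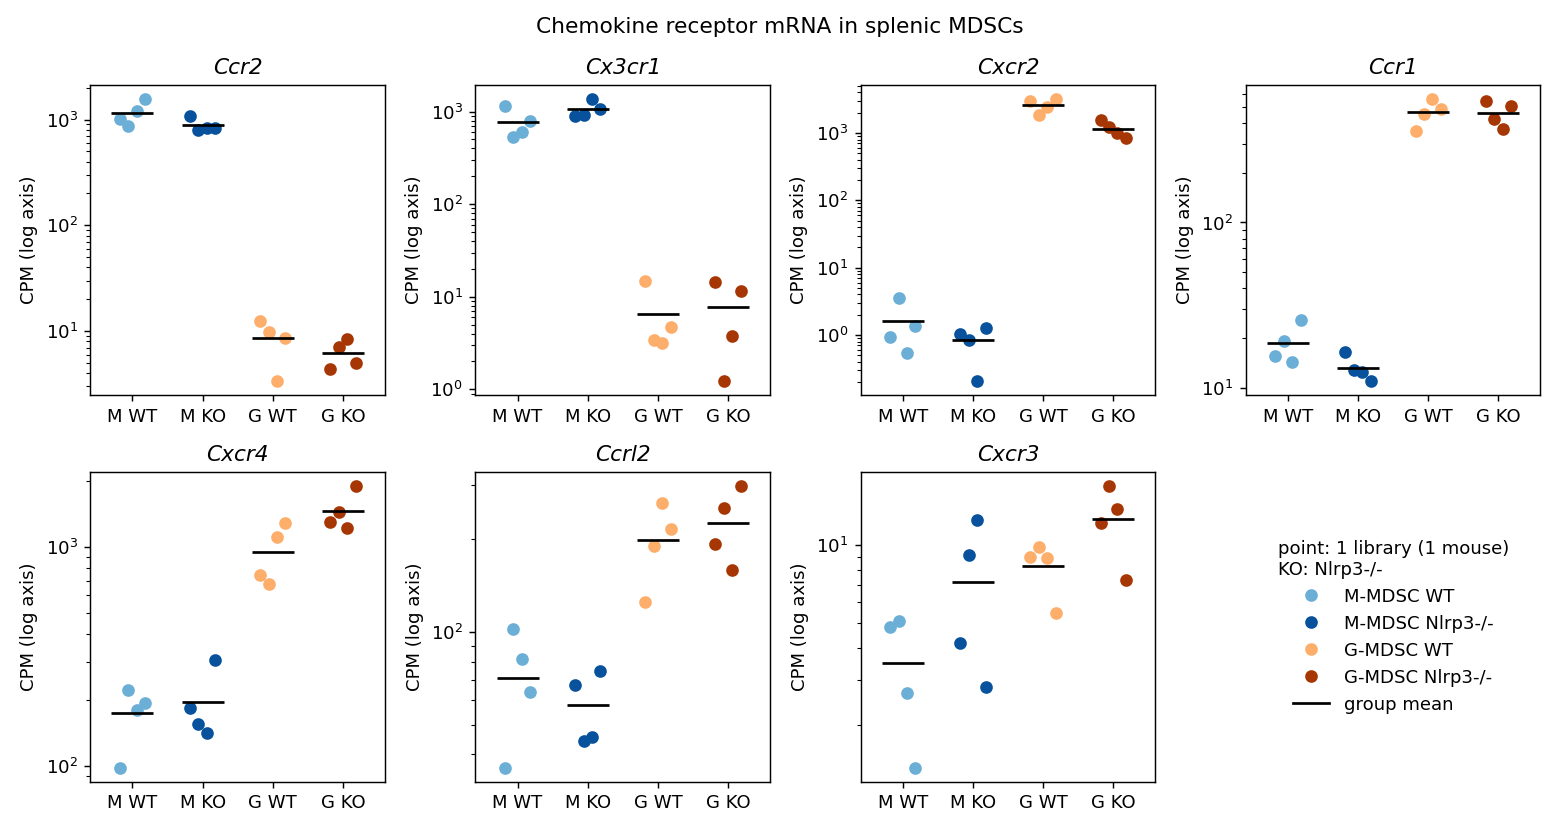
Level of each of the 7 receptor mRNAs in the 16 libraries, with CPM after TMM scaling on a log axis and a panel per gene (M, M-MDSC; G, G-MDSC; KO, Nlrp3-/-). Points are libraries, each from 1 mouse, and lines are group means. Cxcr2 in Nlrp3-/- G-MDSCs (853 to 1543 CPM) lies below WT G-MDSCs (1852 to 3194 CPM), and Ccr2 and Cx3cr1 (875 and 529 CPM or more in WT M-MDSCs) reach at most 12.4 and 14.7 CPM in G-MDSCs.

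**Figure D2:**
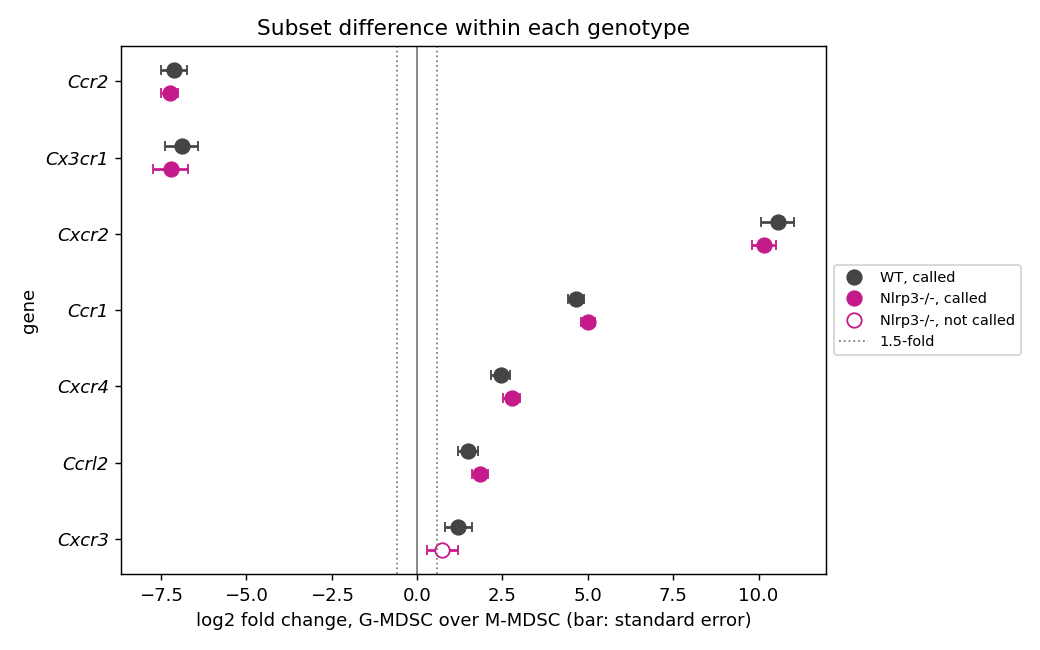
Log2 fold change of G-MDSCs over M-MDSCs for each receptor in WT and in Nlrp3-/- mice, with bars for the standard error and dotted lines at a 1.5-fold difference. Filled points were called, and Cxcr3 in Nlrp3-/- mice (0.74 ± 0.45) is the open point. Cxcr2 passed the filter through G-MDSCs alone. The points of Cx3cr1 and of Cxcr3 in WT mice also lean on the subset where the gene is high.

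The second question was how Nlrp3-/- and WT cells differed within each subset. Cxcr2 fell in Nlrp3-/- G-MDSCs, and it was the sole receptor called in either genotype comparison. WT G-MDSCs averaged 2605 CPM ± 601 and Nlrp3-/- G-MDSCs 1155 CPM ± 300.4 (SD, n = 4 each), and the highest Nlrp3-/- library (1543 CPM) was below the lowest WT library (1852 CPM). The fall was 2.39-fold, with a log2 fold change of -1.26 ± 0.22 (edgeR adjusted p = 0.00152), and the exact permutation test gave p = 0.0286, its smallest value. Thus 1 of 7 receptors was called in G-MDSCs, lower, against a background of 16.4% of 9273 genes called in either direction and 11.7% called lower, so the count of receptors was near the background and the result concerns Cxcr2 itself. The ranges of the genotypes were separate for 24.4% of all genes in G-MDSCs. Cxcr2 was called in 12 of 12 other analyses, with a log2 fold change of -1.26 to -1.07, and in 8 of 8 fits that left out a library (-1.42 to -1.13). The analysis without a fold minimum is the main fit under a looser rule and could not lose the call.

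Several marker lists moved with the genotype in the same libraries, and their calls stand beside 16.4% of all genes called in G-MDSCs. The summed level of 10 mature neutrophil markers was 22279 to 35599.9 CPM in WT and 41864 to 54559.9 CPM in Nlrp3-/- G-MDSCs, while 12 immature neutrophil markers summed to 8424 to 16697 and 8253 to 14566 CPM. Il1b, a cytokine gene, made up the largest part of the mature sums, at 12767 CPM ± 3604 in WT and 21934 CPM ± 3832 in Nlrp3-/- G-MDSCs (SD, n = 4). Of the 10 mature markers Il1b and Slpi rose, Cd274 fell and the others were not called, so the sums do not show a rise of the whole list. Of the immature markers 8 were tested and 0 were called. Csf3r, the G-CSF receptor and a marker of neutrophils, was at 1113 CPM ± 404 in WT and 1203 CPM ± 264 in Nlrp3-/- G-MDSCs (SD, n = 4), a difference that was not called (adjusted p = 0.965). Of 9 proliferation markers tested 4 fell (Mki67, Top2a, Tpx2 and Nusap1) and 5 were not called, and the sums of the list overlapped, at 168 to 536 CPM in WT and 83.9 to 233 CPM in Nlrp3-/- G-MDSCs. Of 10 red pulp macrophage markers 6 rose, and the sums were 475 to 802 CPM in WT and 1007 to 1266 CPM in Nlrp3-/- G-MDSCs. Monocyte markers summed to 1323 to 2194 and 2176 to 2694 CPM. The part of these shifts in the fall of Cxcr2 was not tested.

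Cxcr4, the marrow-retention receptor, had a higher mean in Nlrp3-/- G-MDSCs, at 1462 CPM ± 305 against 951 CPM ± 288 in WT (SD, n = 4). The lowest Nlrp3-/- library (1213 CPM) lay below the highest WT library (1278 CPM), so the groups overlapped. The log2 difference of 0.53 ± 0.22 (edgeR adjusted p = 0.107, exact permutation p = 0.0571) was not called. Without G-MDSC WT replicate 4, the highest of the WT libraries, it was called (0.71, adjusted p = 0.0478).

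The relation of both receptors within a library needs no scaling between libraries and is given as a description. The Cxcr4 count divided by the Cxcr2 count was 0.250, 0.367, 0.459 and 0.400 in WT and 0.841, 1.18, 1.21 and 2.22 in Nlrp3-/- G-MDSCs, without overlap. The Ccr1 to Cxcr2 ratio was 0.120, 0.244, 0.231 and 0.153 in WT and 0.350, 0.346, 0.368 and 0.590 in Nlrp3-/- G-MDSCs, also without overlap, while Ccr1 itself was at 463 CPM ± 83.9 and 459 CPM ± 77.5 (SD, n = 4). Since Cxcr2 is in both ratios, they repeat its fall. They compare groups, and are not a measure of which mRNA is the more abundant.

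The other receptors were not called in G-MDSCs. Ccr1 differed by -0.10 ± 0.18 on the log2 scale (edgeR adjusted p = 0.726) and Ccrl2 by 0.10 ± 0.24 (adjusted p = 0.809), with widely overlapping ranges. Ccr2 (-0.51 ± 0.43, adjusted p = 0.445) and Cx3cr1 (0.17 ± 0.66, adjusted p = 0.884) rested on 14 to 41 and 5 to 62 counts per library, and the standard errors leave room for differences of more than 1.5-fold. Cxcr3 differed by 0.52 ± 0.34 (adjusted p = 0.321), from a mean of 8.31 CPM ± 1.95 to 12.6 CPM ± 4.04 (SD, n = 4). Beside it, the 16 T and NK cell markers summed to 214 to 312 CPM in WT and 259.7 to 372 CPM in Nlrp3-/- G-MDSCs, with Gzma and Nkg7, genes of cytotoxic cells, higher and Il7r lower.

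**Figure D3:**
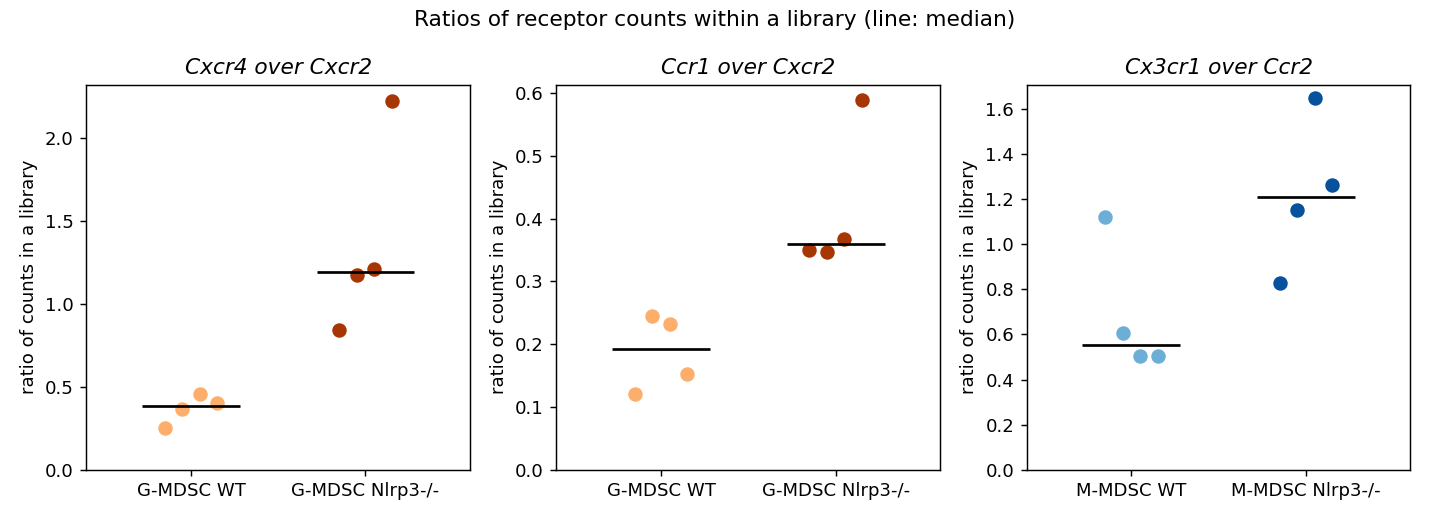
Ratios of receptor counts within each library, with the ratio on a linear axis from 0 and a panel per ratio. Points are libraries and lines are group medians. Cxcr4 over Cxcr2 runs from 0.250 to 0.459 in WT and from 0.841 to 2.22 in Nlrp3-/- G-MDSCs, and Cx3cr1 over Ccr2 overlaps between genotypes in M-MDSCs through 1 WT library at 1.12.

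In M-MDSCs 0 of 6 receptors tested were called between genotypes, against a background of 10.6% of 9986 genes. DESeq2 and edgeR's exact test also called 0 of them, beside 1424 and 1324 genes in all, and 0 had an unadjusted p under 0.05, beside 3002 of the 9986 genes. Cxcr2 was left out by the filter on low counts. Ccr2 had a mean of 1164 CPM ± 297 in WT and 885 CPM ± 131 in Nlrp3-/- M-MDSCs (SD, n = 4), a log2 difference of -0.36 ± 0.20 (edgeR adjusted p = 0.254) with overlapping ranges. Cx3cr1 had the opposite sign, 766 CPM ± 274 against 1059.7 CPM ± 218 and 0.49 ± 0.24 on the log2 scale (adjusted p = 0.188). WT replicate 1, at 1144 CPM, lay inside the Nlrp3-/- range while the other 3 WT libraries lay below it. Without that library Cx3cr1 was called higher in Nlrp3-/- M-MDSCs (0.77, adjusted p = 0.0424). The count of Cx3cr1 divided by that of Ccr2 was 1.12, 0.605, 0.504 and 0.503 in WT and 0.830, 1.15, 1.65 and 1.27 in Nlrp3-/- M-MDSCs, and the overlap came from the same WT library. Of 10 markers of patrolling monocytes, which carry high CX3CR1, Eno3 alone was called and was higher, and their sums were 1198 to 1501 and 1292 to 1898 CPM.

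Differences of the remaining receptors in M-MDSCs were also not called. Ccr1 was at 18.7 CPM ± 5.11 in WT and 13.2 CPM ± 2.27 in Nlrp3-/- mice (log2 -0.45 ± 0.25, edgeR adjusted p = 0.234), Ccrl2 at 71.0 CPM ± 27.998 and 57.9 CPM ± 15.2 (-0.26 ± 0.29, adjusted p = 0.583), and Cxcr4 at 174 CPM ± 53.1 and 197 CPM ± 74.9 (0.21 ± 0.28, adjusted p = 0.668). Cxcr3 had the largest of these log2 differences and the largest error, 0.98 ± 0.50 (adjusted p = 0.213), at 3.48 CPM ± 1.77 and 7.19 CPM ± 4.50 (SD, n = 4). The T and NK cell marker sum was 164 to 224 CPM in WT and 220.3 to 371 CPM in Nlrp3-/- M-MDSCs, and Gzma was called higher.

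**Figure D4:**
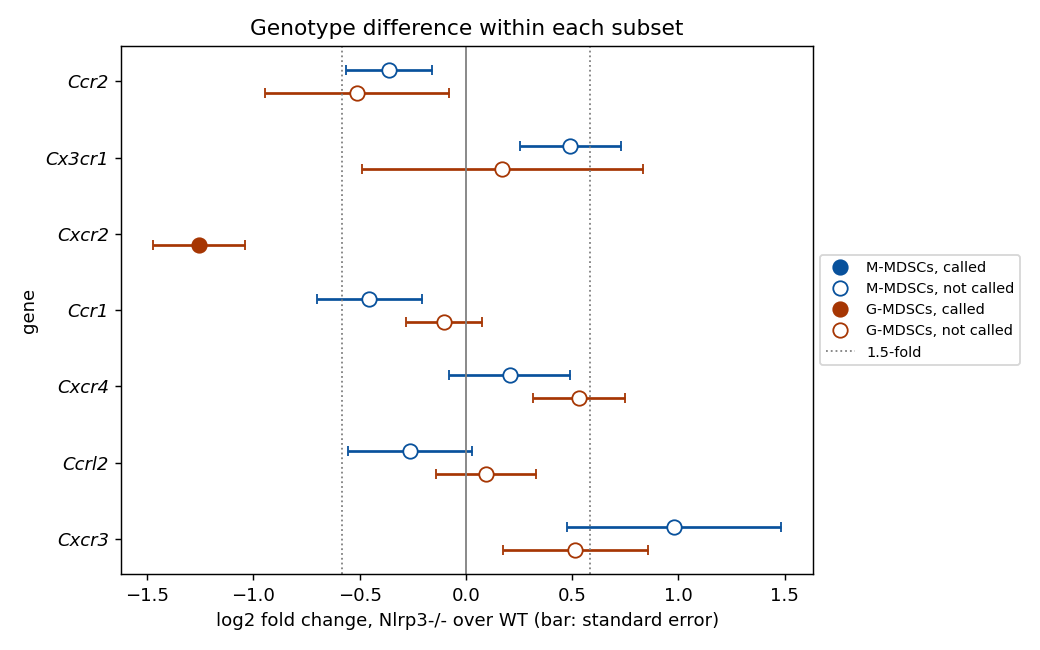
Log2 fold change of Nlrp3-/- over WT for each receptor in M-MDSCs and G-MDSCs, with bars for the standard error and dotted lines at a 1.5-fold difference. The filled point, Cxcr2 in G-MDSCs at -1.26, is the sole call, and Cxcr2 was not tested in M-MDSCs.

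Whether the genotype acted differently in the subsets was tested by an interaction term over all 16 libraries. It was called for 0 of 7 receptors at an adjusted p under 0.05 by edgeR, against a background of 0.028%, that is 3 of 10696 genes. DESeq2 also called 0 of the 7, and 0 receptors and 480 genes had an unadjusted p under 0.05. For Cxcr2 the genotype effect in G-MDSCs minus that in M-MDSCs was -0.29 ± 0.65 on the log2 scale, and -1.40 to 0.02 in fits that left out a library. The fall in G-MDSCs is thus not shown to be particular to them, nor to be shared by M-MDSCs, whose counts near the floor limit this test. For Cxcr4 the term was 0.44 ± 0.38 and for Ccr1 0.46 ± 0.28.

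The order of the 4 group means separated the subsets before the genotypes for every receptor. Ccr1 and Cxcr2 ran from WT G-MDSCs through Nlrp3-/- G-MDSCs and WT M-MDSCs to Nlrp3-/- M-MDSCs, Cxcr4 and Cxcr3 from Nlrp3-/- G-MDSCs through WT G-MDSCs and Nlrp3-/- M-MDSCs to WT M-MDSCs, and Ccrl2 from Nlrp3-/- G-MDSCs through WT G-MDSCs and WT M-MDSCs to Nlrp3-/- M-MDSCs. Ccr2 was highest in WT and Cx3cr1 in Nlrp3-/- M-MDSCs. Neighbouring genotypes of a subset overlapped for all receptors in both subsets apart from Cxcr2 in G-MDSCs, and neighbours from different subsets overlapped for Cxcr3 alone. With libraries scaled by size only the order of the means was kept for 5 of the 7 and changed for Ccr1, whose G-MDSC groups traded places, and for Cxcr3, whose middle groups did.

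Genes whose pattern was most like that of a receptor were sought among 10689 other genes by Pearson's r of log2 CPM over the 16 libraries, given as a description. All pairs share the division into subsets and the same libraries, and r reports that division too. The highest were Il1f9 (0.994), Slfn4 (0.993) and Ankrd33b (0.992) for Cxcr2, Amer2 (0.995), St3gal6 (0.994) and Cpd (0.994) for Ccr1, and Rnf149 (0.986), Lcp1 (0.986) and Sirpb1b (0.985) for Cxcr4. Sirpb1b (0.971) was also among the 3 closest to Ccrl2, with Pnrc1 (0.971) and Hbp1 (0.968). Rassf4 (0.991), Ctss (0.990) and Ms4a6c (0.990) came closest to Ccr2, and S100a4 (0.991), Tmem176b (0.989) and Fn1 (0.988) to Cx3cr1. Cxcr3 had no partner as close, Gpr137 (0.893), Sppl3 (0.870) and Pou2af1 (0.862) leading.

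The partners of the receptors were read from lists of their ligands, of other chemokine receptors, of signaling genes and of further chemoattractant receptors. Genotype calls in these lists stand beside 16.4% of all genes called in G-MDSCs and 10.6% in M-MDSCs. Of 23 ligands, 10 were tested in G-MDSCs and 2 rose in Nlrp3-/- mice, Ccl3 (94.2 CPM ± 32.8 to 182 CPM ± 68.1, SD, n = 4, log2 0.86 ± 0.28, edgeR adjusted p = 0.0488) and Ccl4 (log2 0.92 ± 0.30, adjusted p = 0.0479). Ccl3 is a ligand of CCR1. In M-MDSCs 12 ligands were tested and Ccl5, a further CCR1 ligand, rose (67.4 CPM ± 20.4 to 130.1 CPM ± 55.1, log2 0.96 ± 0.28, adjusted p = 0.0473). Cxcl2, a CXCR2 ligand, was at 2062 CPM ± 1077 in WT and 1811 CPM ± 1177 in Nlrp3-/- G-MDSCs and was not called (adjusted p = 0.689). The median log2 difference of the ligands tested was 0.22 in G-MDSCs and 0.21 in M-MDSCs, beside 0.03 and 0.07 over all genes tested.

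Among 19 other chemokine receptors, 6 were tested in G-MDSCs and Cxcr1 rose. CXCR1 is the neighbour and closest relative of CXCR2, and its mRNA went from 38.3 CPM ± 10.2 in WT to 66.5 CPM ± 13.8 in Nlrp3-/- G-MDSCs (SD, n = 4, log2 0.71 ± 0.23, edgeR adjusted p = 0.0447), while Cxcr2 fell. Both genes are neutrophil receptors for CXC chemokines, and the difference between their changes was not tested. In M-MDSCs 8 were tested and Ccr3, the eotaxin receptor of eosinophils, was higher in Nlrp3-/- mice (5.24 CPM ± 4.45 to 25.3 CPM ± 15.0, log2 2.39 ± 0.54). It had 8 to 34 counts in WT and 98 to 278 in Nlrp3-/- libraries. Not every WT library reached the cutoff of the filter on low counts. The difference leans on the group where the gene is high and is given as a description with no test. In the same comparison 12 eosinophil and basophil markers, Ccr3 among them, summed to 20.3 to 42.7 CPM in WT and 41.2 to 80.9 CPM in Nlrp3-/- M-MDSCs. Of these markers 3 were tested and Ccr3 alone was called, so the sums in large part repeat its rise. The part of such cells was not tested. The median log2 differences were 0.11 in G-MDSCs and -0.13 in M-MDSCs.

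Of 38 signaling and desensitization genes, 37 were tested in each subset, and 6 were called in G-MDSCs and 2 in M-MDSCs, no larger a share than the 16.4% and 10.6% of all genes. In Nlrp3-/- G-MDSCs 3 rose, namely Rgs1, a regulator of G protein signaling (log2 1.09 ± 0.28, edgeR adjusted p = 0.0174), Pik3r5, a subunit of the PI3K gamma complex (0.61 ± 0.18), and Arrb1, which encodes beta-arrestin 1 (0.60 ± 0.18). Dock8, an activator of CDC42 in migrating leukocytes, fell by 1.61 on the log2 scale (adjusted p = 3.86e-05), as did Rgs18 by 1.41 and Plcb2, a phospholipase C, by 0.63. In M-MDSCs Dock8 fell by 1.14 (adjusted p = 0.00494) and Adrbk1, the receptor kinase GRK2, rose by 0.67 ± 0.17. The other genes of the list were not called, and the list medians were 0.27 in G-MDSCs and 0.11 in M-MDSCs. Of 15 further chemoattractant receptors, 11 were tested in G-MDSCs, where P2ry2, a nucleotide receptor, rose (0.86 ± 0.27, adjusted p = 0.0405) and Gpr183, the oxysterol receptor, and S1pr1, the sphingosine 1-phosphate receptor, fell by 1.05 and 0.77. In M-MDSCs 13 were tested and Gpr183 fell by 0.89. The medians of this list were 0.19 in G-MDSCs and 0.44 in M-MDSCs.

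The genotype calls in the remaining marker lists were as follows, beside 10.6% of all genes called in M-MDSCs and 16.4% in G-MDSCs. In M-MDSCs they were Klf4 (lower) among monocyte markers, Retnlg and Mmp9 (higher) among neutrophil and mature neutrophil markers, 4 of 9 proliferation markers (lower), Ms4a1 (lower) among B and plasma cell markers and 6 of 10 red pulp macrophage markers (higher, sums of 163 to 176 CPM in WT and 269 to 421 CPM in Nlrp3-/- mice). In G-MDSCs they were Csf1r (higher) among monocyte markers, Ms4a1 (lower) among B and plasma cell markers and Itga2b (higher) among erythroid and platelet markers. Dendritic cell and immature neutrophil markers gave 0 calls in either subset, as did patrolling monocyte, neutrophil, and eosinophil and basophil markers in G-MDSCs and erythroid and platelet markers in M-MDSCs.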

How the data were processed

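Each library was made by QuantSeq 3′ sequencing with 15 or 17 amplification cycles from RNA of 1 mouse. The authors aligned reads to mm10 with HISAT2 2.1.0, counted them by strand with HTSeq and deposited raw counts per gene symbol, which were used unchanged. Molecular tags were not used here, so the floor covers counting error only, while SDs and SEs are between libraries. The analysis used edgeR 4.0.16 (the authors used 3.14.0), limma 3.58.1 and DESeq2 1.42.0 in R 4.3.3, and matplotlib 3.10.9 in Python 3.11. Genotypes were compared within a subset and subsets within a genotype by the quasi-likelihood test after filterByExpr and TMM over all genes, with Benjamini-Hochberg adjustment (FDR under 0.05, fold change above 1.5), and the interaction in a model of 16 samples. The standard error is the log2 fold change over the square root of F. Log2 CPM used a prior count of 2.

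The members, gene lists and tests were chosen with earlier results of these data known. The receptors, up to 3 called genes of each direction per list, the sort and target checks and the 3 closest genes per receptor are named. Cxcl2, the T and NK cell markers called between the WT subsets and genes of the list calls beyond 3 were added after their values were seen. Of 24421 symbols, 24027 were matched to GENCODE for length and GC content, 651 of them by an older symbol. Loci and promoters are from RefSeq. Among library pairs of a group 0 were identical. M-MDSCs and G-MDSCs of the same number and genotype carry the same spleen name in the labels and were taken as 1 mouse, with a mean correlation of deviations of 0.239 in WT and 0.190 in Nlrp3-/- mice, and same-numbered WT and Nlrp3-/- samples are different mice. Alternatives were DESeq2 and its size factors, library size only, upper quartiles, a filter of at least 10 counts per sample, none at all, edgeR's exact test, no fold minimum, a model of all 16 samples, a GC content and length correction, the replicate block, and each library left out.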

Additional observations from a re-analysis of the deposited data

Results flagged for a closer look

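In 28 group levels, 4 libraries each, a library lay far from the other 3 in 2 cases by Dixon's 95% critical value, and chance gives about 1 in 20. Ccr2 in M-MDSC Nlrp3-/- replicate 1 was 1080 CPM, the nearest library being at 839 CPM (gap over range 0.844). Cx3cr1 in G-MDSC WT replicate 1 was 14.7 CPM, the nearest being at 4.67 CPM (0.868), and the M-MDSCs labelled with the same spleen had the highest Cx3cr1 among WT M-MDSCs, at 1144 CPM. The causes were not tested.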

How the results depend on the processing

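The fall of Cxcr2 in Nlrp3-/- G-MDSCs and the absence of other genotype calls held in each of the 12 alternatives with all libraries. Leaving out a library gave 0 to 1 receptors called in M-MDSCs (Cx3cr1) and 1 to 2 in G-MDSCs (Cxcr4 beside Cxcr2), 6 to 7 between subsets in WT and 6 to 6 in Nlrp3-/- mice, and 0 to 0 interactions. Between subsets the other alternatives gave 5 to 7 calls in WT and 4 to 7 in Nlrp3-/- mice, the lowest with at least 10 counts in every sample, which leaves low receptors untested. With all libraries, the sign changed for uncalled genotype differences only, Ccr2 running from -0.39 to 0.06 in M-MDSCs and from -0.51 to 0.09 in G-MDSCs and Ccr1 from -0.11 to 0.24 in G-MDSCs. With library size only, 10 of 28 group means moved by more than 1 SD and the level order was kept for 5 of 7 receptors.

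The replicate block called the same number of receptors, 0 in M-MDSCs and 1 in G-MDSCs for the genotype, and 7 in WT and 6 in Nlrp3-/- mice for the subsets. Same-numbered mice of the 2 genotypes share a number only (mean correlations of -0.157 in M-MDSCs and -0.152 in G-MDSCs). Over all genes, calls in M-MDSCs numbered 1060, but 425 with the block, 655 with the GC content and length correction, 48 with both, and 450 to 1783 without a library. In G-MDSCs they numbered 1522, but 985, 964 and 401. Interactions numbered 3, but 5 without a filter and 8 by DESeq2. Library size only changed the split of higher to lower calls from 351 and 709 to 684 and 569 in M-MDSCs, from 436 and 1086 to 793 and 854 in G-MDSCs (636 and 992 by upper quartiles), from 2557 and 2636 to 1166 and 5061 between subsets in WT (2051 and 3324 by upper quartiles) and from 2383 and 2758 to 1146 and 5034 in Nlrp3-/- mice. The median of all genes between subsets moved with it from -0.05 to -0.79 in WT and from -0.12 to -0.83 in Nlrp3-/- mice, and Ccrl2 in WT was still called (0.74). Causes of these changes were not tested. Receptors under 20 counts in a library, Cxcr2 in M-MDSCs foremost, were limited by depth.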
